A study of Mus musculus with 2 samples.

Results

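The genes of oxidative phosphorylation (OXPHOS) subunits were chosen by symbol alone, without any measured value. The rule took the Nduf genes of complex I, Sdha to Sdhd of complex II, the Uqcr genes of complex III, the Cox4 to Cox8 genes of complex IV, the Atp5 genes of the ATP synthase (complex V) and the 13 protein genes of mitochondrial DNA (mt-). It left out Cox4i2, Ndufa4l2 and pseudogenes named -ps. Of the 27998 genes in the deposited table, 95 were members, 82 nuclear and 13 mt-. The nuclear members comprised 36 genes of complex I, 4 of complex II, 8 of complex III, 17 of complex IV and 17 of complex V by symbol. Ndufa4 counts as complex I by its name although its protein belongs to complex IV, and Atp5s and Atp5sl carry the name without being core subunits. At least 1 molecule was counted for 94 members in room air and for all 95 in hyperoxia.

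The study exposed C57BL/6 mice to room air (21% O2) or hyperoxia (80% O2) from P0 to P14, an injury model of the newborn lung. Both groups shared strain, age (2 weeks), perfusion, enzymatic digestion and lysis of red cells, and neither carried a transgene. Whole lung cells of 8 mice were pooled into 1 droplet library per group, in which each captured mRNA molecule is counted once through its unique molecular identifier (UMI). As each group was 1 library, the groups could not be tested against each other, and oxygen exposure and library preparation cannot be told apart.

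The respiratory chain passes electrons from NADH (complex I) and succinate (complex II) over complex III to oxygen at complex IV, and pumps protons that drive the ATP synthase. Complex II is built from nuclear genes alone, whereas the other complexes combine nuclear subunits with subunits made inside the mitochondrion. The lung endothelium relies strongly on glycolysis, and surfactant-producing alveolar type 2 (AT2) cells are rich in mitochondria. Several complex IV subunits come in isoforms with tissue preference, such as Cox6a1 (most tissues) and Cox6a2 (heart and skeletal muscle).

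After removal of barcodes with few genes, many mitochondrial UMIs or doublet-like profiles, 3680 cells remained in room air and 10472 in hyperoxia, with medians of 8067 and 7208.5 UMIs. They formed 30 clusters in 5 lineages, and 21 cell types had at least 30 cells in each library. All names end in -like because they were rebuilt from marker genes, and no member entered the clustering. Only 17 barcodes were shared by the libraries. Expression is given as UMIs per 1000000 UMIs summed over a group of cells (CPM). Differences are log2 ratios, positive where hyperoxia was higher. The 95% intervals in parentheses are exact, but they hold counting error alone and leave out how mice or libraries vary. A ratio was counted as past the fold when it was at least 0.5 on the log2 scale in either direction at a mean of at least 50 CPM. The Club-like cells were shallow, with a median UMI count of 3942 (room air) or 1454.5 (hyperoxia). Of all their genes at 50 CPM, 57.1% were past the fold upward and 12.5% downward, so their ratios as a cell type are given apart. Lineage values also move with the makeup of a lineage, as gCap-like cells were 574 of 1038 endothelial-like cells in room air and 800 of 2545 in hyperoxia. Club-like cells stayed in the epithelial-like values, as 65 of 293 cells in room air and 262 of 1214 in hyperoxia. These were similar parts of the cells, but Club-like cells held a far smaller part of the epithelial-like UMIs in hyperoxia than in room air. All epithelial-like ratios below hold this shift as well.

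The mt- members that differed most between the libraries were the shortest ones, and their genes share mRNA with longer neighbours. Their sequences are shown because the ratio of their counts to those of the neighbours differed between the libraries. In mitochondrial DNA, mt-Atp8 and mt-Atp6 (subunits of the ATP synthase) are made as 1 mRNA with overlapping reading frames, and so are mt-Nd4l and mt-Nd4 (complex I). On the GRCm38 build mt-Atp8 lies at chrM:7766-7969 on the plus strand (204 bases) and mt-Atp6 at chrM:7927-8607. The mt-Nd4l gene lies at chrM:9877-10173 (297 bases) and mt-Nd4 at chrM:10167-11544. Both are protein-coding and have a single exon. The sequences are from the GENCODE transcripts, 5′ to 3′, and capitals mark the bases that the downstream gene shares (43 for mt-Atp6 and 7 for mt-Nd4).
mt-Atp8: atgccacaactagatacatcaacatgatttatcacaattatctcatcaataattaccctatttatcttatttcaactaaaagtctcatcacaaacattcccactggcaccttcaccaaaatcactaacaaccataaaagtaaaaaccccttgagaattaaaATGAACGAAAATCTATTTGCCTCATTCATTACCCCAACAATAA
mt-Nd4l: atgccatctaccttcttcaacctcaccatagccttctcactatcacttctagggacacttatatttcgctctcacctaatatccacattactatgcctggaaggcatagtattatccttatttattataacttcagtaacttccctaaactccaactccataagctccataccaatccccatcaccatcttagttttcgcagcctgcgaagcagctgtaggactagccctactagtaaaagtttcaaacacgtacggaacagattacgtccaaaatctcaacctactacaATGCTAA

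In endothelial-like cells (ECs), mt-Atp8 had 130.5 CPM in room air and 59.7 in hyperoxia (log2 ratio -1.13, -1.25 to -1.01). For mt-Atp6, on the same mRNA, the values were 5515 and 7885 CPM, with a log2 ratio of 0.52 (0.50 to 0.53). Thus 23.7 UMIs of mt-Atp8 were counted per 1000 UMIs of mt-Atp6 in room air and 7.57 in hyperoxia. Over the 21 cell types this proportion ran from 14.6 to 28.5 in room air and from 5.24 to 9.70 in hyperoxia, so that the libraries did not overlap. The mt-Nd4l gene was also lower beside its neighbour, with a narrower gap. Its endothelial-like values were 661 and 353 CPM (log2 ratio -0.90, -0.955 to -0.853), while mt-Nd4 had 2681 and 2667 CPM (-0.01, -0.03 to 0.02). Per 1000 mt-Nd4 UMIs, 152 to 263 mt-Nd4l UMIs were counted in the cell types of room air and 89.2 to 149 in those of hyperoxia. These ranges nearly touch, at neutrophil-like cells of room air (152) and smooth muscle-like cells of hyperoxia (149). The 21 cell types share the 2 libraries, so they are no repeats, and no interval is given for these proportions. Since genes that overlap on 1 strand share bases, reads in the overlap cannot be given to either gene with certainty.

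Most other mt- members were higher in hyperoxia. In ECs, mt-Cytb (the mitochondrial subunit of complex III) had 3203 CPM in room air and 5451 in hyperoxia, the highest log2 ratio of the 12 mt- members at 50 CPM (0.77, 0.75 to 0.79). For mt-Nd1, a core subunit of complex I, 1813 and 2684 CPM gave a ratio of 0.57 (0.54 to 0.59), and mt-Nd2 reached 0.52. The catalytic subunits of complex IV differed less, with log2 ratios of 0.08 for mt-Co1, 0.42 for mt-Co2 and 0.21 for mt-Co3. The remaining complex I members mt-Nd5 (0.05) and mt-Nd3 (-0.27) stayed within the fold, and mt-Nd6, from the other strand, was below 50 CPM (24.5 and 31.0). In endothelial-like cells 4 of the 12 mt- members were past the fold upward and 2 downward, where 10.6% and 8.77% of all 3683 genes at this level were. In the other lineages mt-Atp8, mt-Nd4l and mt-Nd3 were past the fold downward, with ratios of mt-Atp8 between -0.75 (epithelial-like) and -1.28 (stromal-like) and of mt-Nd4l between -0.73 (myeloid-like) and -1.16 (stromal-like), and of mt-Nd3 between -0.52 (stromal-like) and -0.64 (myeloid-like). Over the cell types, mt-Atp6 and mt-Co2 were higher in hyperoxia in 21 of 21, mt-Nd1, mt-Nd2 and mt-Cytb in 20 of 21, and mt-Nd4l was lower in 21 of 21. The long mt-Nd4 and mt-Nd5 were lower in 15 and 13 of 21, and mt-Nd3 in 20. For mt-Co3 and mt-Co1, 17 and 15 of 21 were higher. In alveolar macrophage-like cells, mt-Nd1 (-0.29) and mt-Nd2 (-0.28) were lower and mt-Nd3 was the lowest of all cell types (-1.39).

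**Figure D1:**
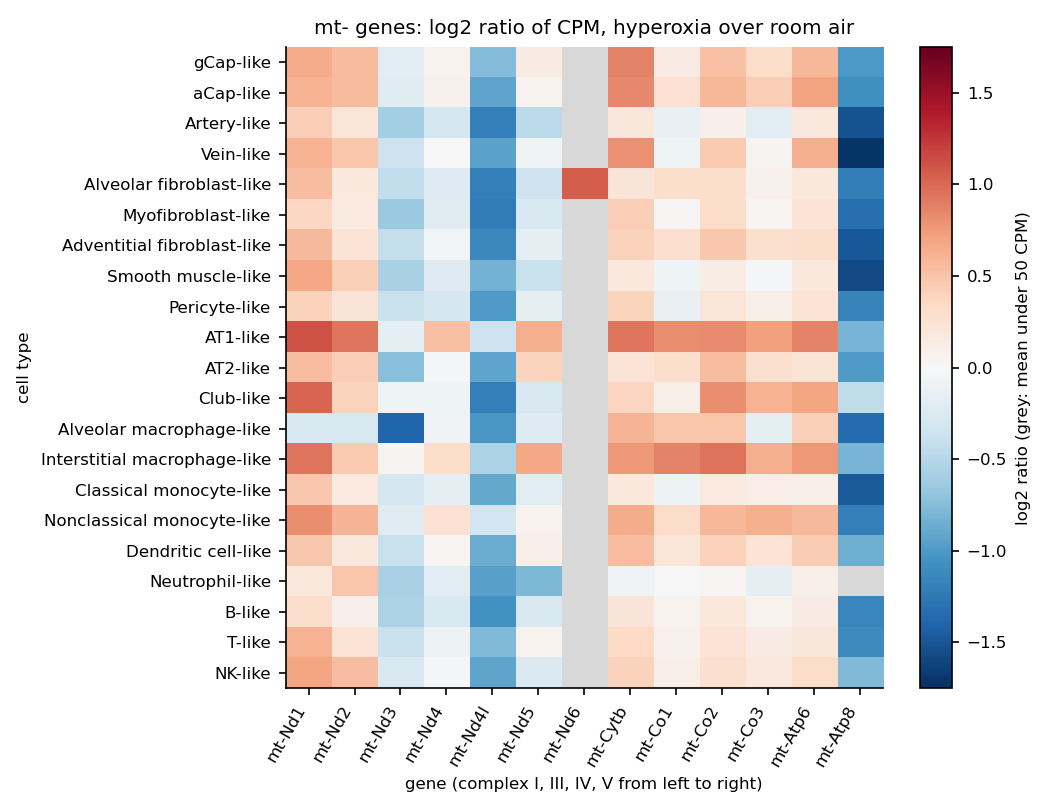
Log2 ratio of CPM, hyperoxia over room air, for the 13 mt- genes (columns) in 21 cell types (rows), red for higher and blue for lower in hyperoxia, grey where the mean was under 50 CPM. The mt-Nd4l and mt-Atp8 columns are blue in each cell type shown, beside red columns of mt-Co2 and mt-Atp6.

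Summed over all 13 members, mt- UMIs were higher in hyperoxia in each of the 5 lineages. In endothelial-like cells they had 31044 (30924 to 31165) CPM and 39291 (39205 to 39378) CPM, with a log2 ratio of 0.34. The ratio was 0.41 in myeloid-like, 0.36 in epithelial-like, 0.19 in stromal-like and 0.11 in lymphocyte-like cells. Of the 21 cell types 19 were higher, with a median of 0.25. AT1-like cells, the flat cells of gas exchange, had the largest ratio (0.79, 30769 and 53199 CPM, from 67 and 128 cells), followed by interstitial macrophage-like cells (0.73) and nonclassical monocyte-like cells (0.50). Artery-like (28715 and 28653 CPM) and neutrophil-like cells (7566 and 7409 CPM) were the exceptions. The sign of the mt- ratio changed under 5 of 12 alternatives of processing in neutrophil-like cells, and under 3 of 8 in Artery-like and in Club-like cells. It changed under 2 of 11 in classical monocyte-like cells and under 1 in alveolar macrophage-like, B-like and T-like cells. The capillary ECs had ratios of 0.48 (aCap-like) and 0.42 (gCap-like). The limit of 20% mitochondrial UMIs per cell acts on these members directly, and 1.89% (1.5 to 2.35) of the barcodes in room air and 3.68% (3.36 to 4.01) in hyperoxia lay over it. The endothelial-like ratio was 0.28 with a limit of 10% and 0.38 with no limit.

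The nuclear sum had no common direction over the lineages, and it was lower in hyperoxia in 17 of the 21 cell types. In endothelial-like cells the 82 nuclear members had 16717 (16629 to 16805) CPM in room air and 17357 (17299 to 17414) in hyperoxia, a log2 ratio of 0.05. Epithelial-like cells were higher in hyperoxia (0.23), whereas stromal-like (-0.15), myeloid-like (-0.09) and lymphocyte-like cells (-0.20) were lower, and for myeloid-like cells the sign changed under 2 of the 13 alternatives computed for it. By cell type, gCap-like (0.14), Vein-like (0.22, 33 cells in room air), AT2-like (0.25) and Club-like cells were higher, and the other 17 were lower. The sign changed under 3 of 12 alternatives in alveolar macrophage-like and in pericyte-like cells, under 2 of 12 in aCap-like and 2 of 8 in Club-like cells, and under 1 in Artery-like and interstitial macrophage-like cells. The median over the 21 cell types was -0.14. The lowest ratio was in neutrophil-like cells (-0.40, 10240 and 7739 CPM), then smooth muscle-like (-0.36, 30 cells in room air) and alveolar fibroblast-like cells (-0.32, 24324 and 19450 CPM). AT2-like cells had 17155 and 20343 CPM, and gCap-like cells 16808 and 18508. Without the Club-like cells, 3 of 20 cell types were higher for the nuclear sum and 18 of 20 for the mt- sum.

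**Figure D2:**
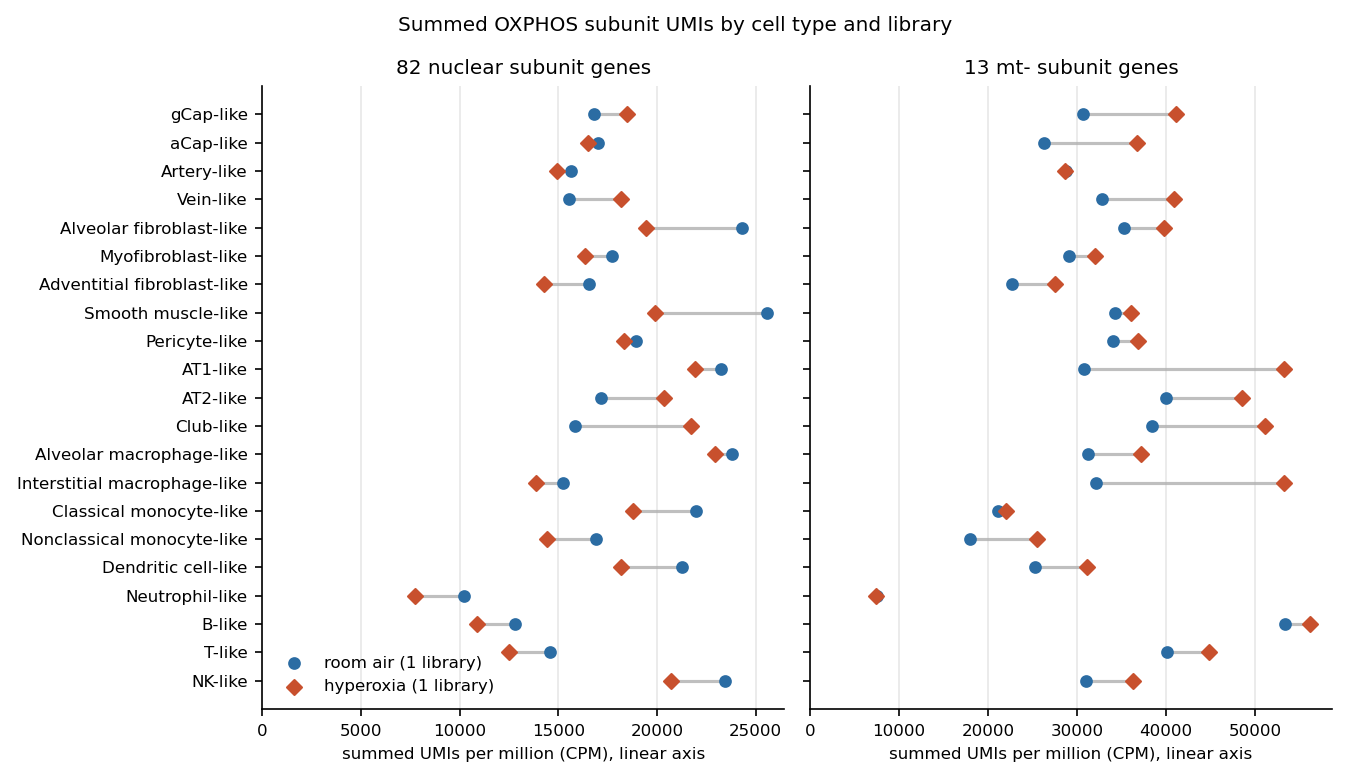
Summed CPM of the 82 nuclear (left) and 13 mt- members (right) in 21 cell types, with a circle for the room air library and a diamond for the hyperoxia library on axes from 0. The mt- sum lies further right in hyperoxia in 19 cell types, and the nuclear sum in 4.

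The cell types kept much of their order between the libraries. Nuclear sums spanned 2.5-fold in room air and 2.96-fold in hyperoxia, with neutrophil-like cells lowest in both. Smooth muscle-like cells were highest in room air. Alveolar macrophage-like cells were highest in hyperoxia, with 22933 CPM there and 23795 CPM in room air. The mt- sums spanned 7.05-fold and 7.58-fold, from neutrophil-like to B-like cells (53377 and 56192 CPM). B-like cells stood near the bottom for the nuclear sum (12804 and 10903 CPM). Across the 21 cell types, which share the libraries and their preparation, Pearson's r of the log2 sums between room air and hyperoxia was 0.83 for nuclear and 0.94 for mt- members. Nuclear and mt- sums were less related to each other (0.30 in room air and 0.54 in hyperoxia, with Spearman's rho of -0.016 and 0.21). The nuclear sum followed the 77 mitochondrial ribosomal protein genes (0.92 and 0.95) and not the 102 cytosolic ones (0.19 in both). No spread over samples was to be had, so neighbours in this order cannot be ranked beyond counting error.

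Complex I, the entry point for NADH, had 35 of its 36 nuclear members at 50 CPM in ECs. Their median log2 ratio was 0.14, beside 0.05 for all genes at this level. Ndufa9, a subunit near the quinone site, was highest with 50.6 CPM in room air and 80.3 in hyperoxia (0.67, 0.51 to 0.83). Ndufa8 (182 and 269.5 CPM, 0.56) and Ndufb9 (171 and 249 CPM, 0.54) were also past the fold. Ndufa3, a small accessory subunit, was lowest with 217 and 117 CPM (-0.89, -0.98 to -0.80), and Ndufa6 followed with 247 and 161 CPM (-0.61, -0.70 to -0.53). Ndufa3 was past the fold downward in 5 of 5 lineages (-0.71 to -0.97) and Ndufa6 in 4, with -0.03 in epithelial-like cells as the exception.

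All 4 members of complex II, which oxidizes succinate, had log2 ratios above 0 in ECs, and none was past the fold. The iron-sulfur subunit Sdhb was highest (113 and 143 CPM, 0.33) and the membrane anchor Sdhc lowest (75 and 85.5 CPM, 0.19). In epithelial-like cells Sdha, the flavoprotein (60.1 and 95.3 CPM, 0.67), and Sdhc (63.8 and 98.8 CPM, 0.63) were past the fold. Of the 8 members of complex III, the iron-sulfur protein Uqcrfs1 had the highest (95.8 and 112 CPM, 0.23) and Uqcr11 the lowest ratio in ECs (267 and 207 CPM, -0.37). In stromal-like cells all 8 were below 0, with Uqcr11 at -0.64.

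The ATP synthase had 15 of 17 members at 50 CPM in ECs, with a median of 0.25. Atp5g1, Atp5g2 and Atp5g3 encode the same mature c subunit of the rotor, and their ratios differed. Atp5g1 had 189 and 271 CPM (0.53, 0.44 to 0.61), Atp5g3 157 and 218 CPM (0.47) and Atp5g2 447 and 419 CPM (-0.09). The lowest ratio was that of Atp5k, the small subunit e, with 178 and 131 CPM (-0.44, -0.53 to -0.35). Atp5k was past the fold downward in stromal-like (-0.65), myeloid-like (-0.77) and lymphocyte-like cells (-0.80). The c subunit genes have related processed pseudogenes, so reads that match several places could have been lost from them.

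The nuclear members past the fold were counted beside all genes at 50 CPM. In ECs 5 of 73 members were higher and 3 lower, against the 10.6% and 8.77% of all genes given above. In stromal-like cells 1 of 74 was higher (all genes 7.81%) and 10 were lower (6.17%). In lymphocyte-like cells 0 of 69 were higher (2.87%) and 9 lower (3.18%), and in myeloid-like cells 0 of 73 (6.47%) and 5 (10.0%). Epithelial-like cells had 13 of 74 higher (12.3%) and 1 lower (9.17%). The medians of members and of all genes were 0.14 and 0.05 in endothelial-like, -0.09 and 0.04 in stromal-like, 0.22 and 0.11 in epithelial-like, -0.06 and -0.07 in myeloid-like and -0.20 and 0.04 in lymphocyte-like cells. In AT2-like cells 16 of 73 members were higher (9.11% of all genes) and 2 lower (7.51%), and in gCap-like cells 9 of 73 (10.2%) and 3 (9.03%). In neutrophil-like cells 0 of 52 were higher (13.7%) and 26 lower (11.5%), and in smooth muscle-like cells, with 30 cells in room air, 0 of 73 (14.2%) and 26 (11.7%). Vein-like cells, with 33 cells in room air, had 26 of 73 higher (20.8%) and 7 lower (12.4%).

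**Figure D3:**
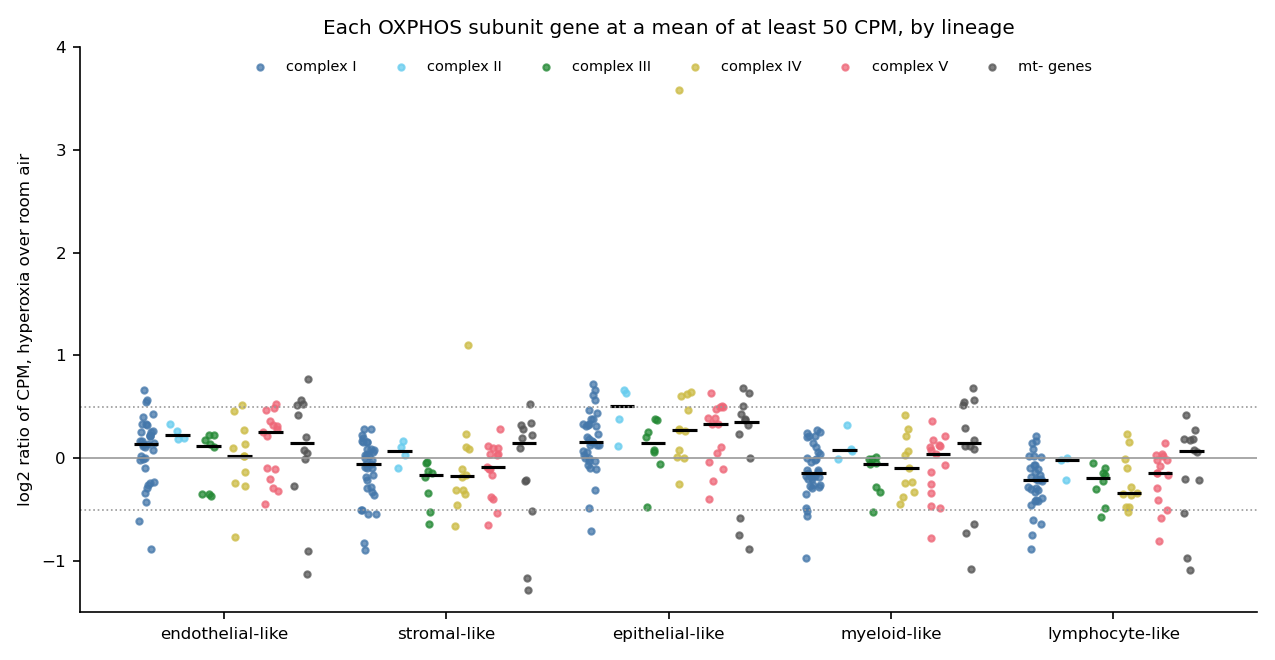
Log2 ratio of CPM, hyperoxia over room air, of each member at a mean of at least 50 CPM (points, coloured by complex) in 5 lineages, with the median of each complex as a bar and dotted lines at 0.5 and -0.5. Epithelial-like complexes lie highest, with Cox6a2 at 3.58, and the lowest points of each lineage are mt- genes or complex I members.

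Direction over the cell types was read beside transcript length. Of the 51 nuclear members at 50 CPM in all 21 cell types, 15 were lower in hyperoxia in at least 19 cell types and 2 were higher in at least 19 (Ndufa8 and Atp5a1, the catalytic-head subunit alpha), that is 29.4% and 3.92%. Of all 882 genes at this level in all 21 cell types, 8.28% were lower and 8.62% higher in at least 19. Ndufa1, Ndufa3 and Uqcr10 were lower in 21 of 21. The median transcript length, from GENCODE release M21, was 474.5 bases for the 15, the longest being Ndufb4 with 971, against 629 for the 51. All 7 members under 450 bases were among the 15. In ECs, nuclear members under 450 bases had a median log2 ratio of -0.42 (n = 7), those of 450 to 600 bases 0.05 (n = 20), those of 600 to 1000 bases 0.19 (n = 27) and those of 1000 to 2000 bases 0.22 (n = 16). The other lineages had medians under 450 bases of -0.40 (epithelial-like) to -0.58 (stromal-like). Spearman's rho of ratio and length over the members at 50 CPM was 0.48 to 0.58 in the 5 lineages (69 to 74 genes, which share 2 libraries and are no independent replicates). With the shortest or the longest transcript of each gene in place of the median it was 0.33 to 0.47. The 8 cytosolic ribosomal protein genes under 450 bases were also low in ECs (-0.90), beside -0.17 for the 20 of 450 to 600 bases. Among the other genes the 20 under 450 bases had a median of -0.19, and rho over 3494 genes was -0.06. In the other lineages the rho of these other genes was -0.0077 (myeloid-like), 0.15 (epithelial-like), 0.20 (stromal-like) and 0.30 (lymphocyte-like). The part of RNA quality, of the size of the amplified fragments or of the kit in this pattern was not tested. When members under 600 bases were left out, an alternative chosen after the data had been seen, the endothelial-like nuclear ratio was 0.17 and 9 of 21 cell types were higher.

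**Figure D4:**
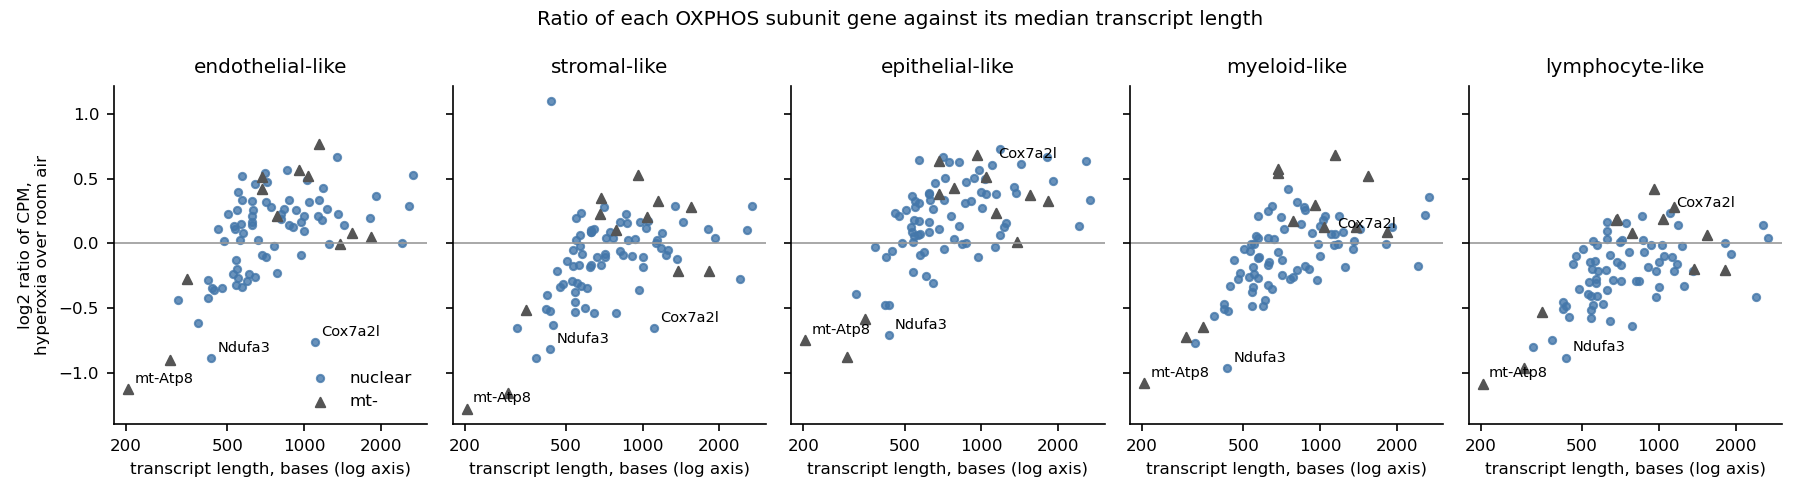
Log2 ratio of CPM, hyperoxia over room air (vertical), against the median transcript length in bases (horizontal, log axis) for the members at 50 CPM in 5 lineages, circles for nuclear and triangles for mt- genes (Cox6a2 in epithelial-like cells, at 3.58, is off the axis). The lowest points lie at the short end, with mt-Atp8 at 204 bases, and Cox7a2l stands below members of its length in endothelial-like and stromal-like cells.

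Complex IV held the members with the greatest contrast between cell types. Cox7a2l encodes a factor described as a link of complexes III and IV in supercomplexes. Neither its protein nor supercomplexes were measured in these C57BL/6 mice. Cox7a2l had the widest spread of ratios over the 21 cell types among the members at 50 CPM in all of them (SD 0.50). In ECs it had 349.8 CPM in room air and 206 in hyperoxia (-0.77, -0.84 to -0.70). The values were 372 and 203 CPM in gCap-like cells (-0.87), 268 and 180 in aCap-like cells (-0.58) and 519.9 and 232 in Vein-like cells (-1.16), while Artery-like cells had 361 and 304 (-0.25, -0.51 to 0.02). Of the stromal cells, alveolar fibroblast-like cells had 313 and 161 CPM (-0.96) and myofibroblast-like cells 274 and 173 (-0.67). Epithelial-like cells went the other way, from 265 to 404 CPM (0.61, 0.52 to 0.69), with AT2-like cells at 311 and 426 (0.45) and AT1-like cells lower at 262 and 195 (-0.43, -0.72 to -0.13). The epithelial-like ratio lay above those of both types, and the smaller part of Club-like UMIs in hyperoxia also enters it. B-like cells had 321 and 398 CPM (0.31), and T-like cells 574 and 545 (-0.07). Its paralogue Cox7a2 had 419.7 and 427 CPM in ECs (0.02). Cox7a1, the contractile-muscle isoform, was at most 5.8 CPM in any lineage.

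Cox6a2 reached 50 CPM on average in AT2-like and Club-like cells. In AT2-like cells it had 51.1 CPM (128 UMIs) in room air and 338 CPM (4108 UMIs) in hyperoxia (log2 ratio 2.73, 2.47 to 2.99). At least 1 UMI was found in 32.3% (25.2 to 40.1) of 161 AT2-like cells in room air and in 66.5% (63.2 to 69.7) of 824 in hyperoxia, at medians of 15941 and 14847 UMIs. Thinned to 2000 UMIs per cell, with 1 and 4 shallower cells left out, the shares were 8.75% (4.87 to 14.2) and 34.8% (31.5 to 38.1). In B-like cells, taken as the background of free RNA, they were 0.258% and 1.19% as counted (medians of 4621 and 2983 UMIs), and 0% and 0.759% when thinned. In room air this was 1 B-like cell that held 8 UMIs, and in hyperoxia 14 cells held 25 UMIs. Alveolar macrophage-like cells had 3 UMIs in room air and 209 in hyperoxia (1.49 and 36.3 CPM, log2 ratio 4.61, 3.04 to 6.90), and AT1-like cells 3 and 37 UMIs. Per 1000 UMIs of the AT2 gene Sftpc, AT2-like cells had 0.243 Cox6a2 UMIs in room air and 1.88 in hyperoxia. Alveolar macrophage-like cells had 5.45 and 76, dendritic cell-like cells 55.8 and 32.7, B-like cells 10.6 and 5.83, and AT1-like cells 0.121 and 3.42. The B-like value of room air rests on the 1 cell given above. In hyperoxia several other cell types were below AT2-like cells, such as gCap-like (1.71), alveolar fibroblast-like (1.11) and T-like cells (0.805). Club-like cells had 1 and 120 UMIs, within the limits given above. The 4 endothelial-like types had between 0 and 9 UMIs in any library. The gene overlaps Itgad on the opposite strand, and the counting is not stated to use strand. The ubiquitous partner Cox6a1 was also higher in hyperoxia, with 271 and 389 CPM in ECs (0.52, 0.45 to 0.59) and 242 and 378 in epithelial-like cells (0.64).

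Cox6b2, known as the testis isoform of subunit 6b, had its highest level in alveolar fibroblast-like cells. It had 155 and 204 CPM in alveolar fibroblast-like cells (0.40, 0.25 to 0.54), and 81.7% and 80.0% of these cells had at least 1 UMI, beside 1.29% and 1.87% of B-like cells. Myofibroblast-like cells had 10.3 CPM in room air and 45.3 in hyperoxia (2.14, 1.74 to 2.55), and adventitial fibroblast-like cells 48.9 and 87.0 (0.83). Club-like cells, within the limits given above, had 30.9 and 79.4 CPM (1.36). In the opposite direction, alveolar macrophage-like cells had 86.7 and 62.9 CPM (-0.46, -0.73 to -0.19). ECs stayed at 4.7 and 7.9 CPM, and the main isoform Cox6b1 had 338 and 342 CPM there (0.02). The other isoforms of muscle and germ cells (Cox7b2, Cox8b and Cox8c) were at most 4.2 CPM in any lineage, while Cox8a had 532 and 442 CPM in ECs (-0.27).

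**Figure D5:**
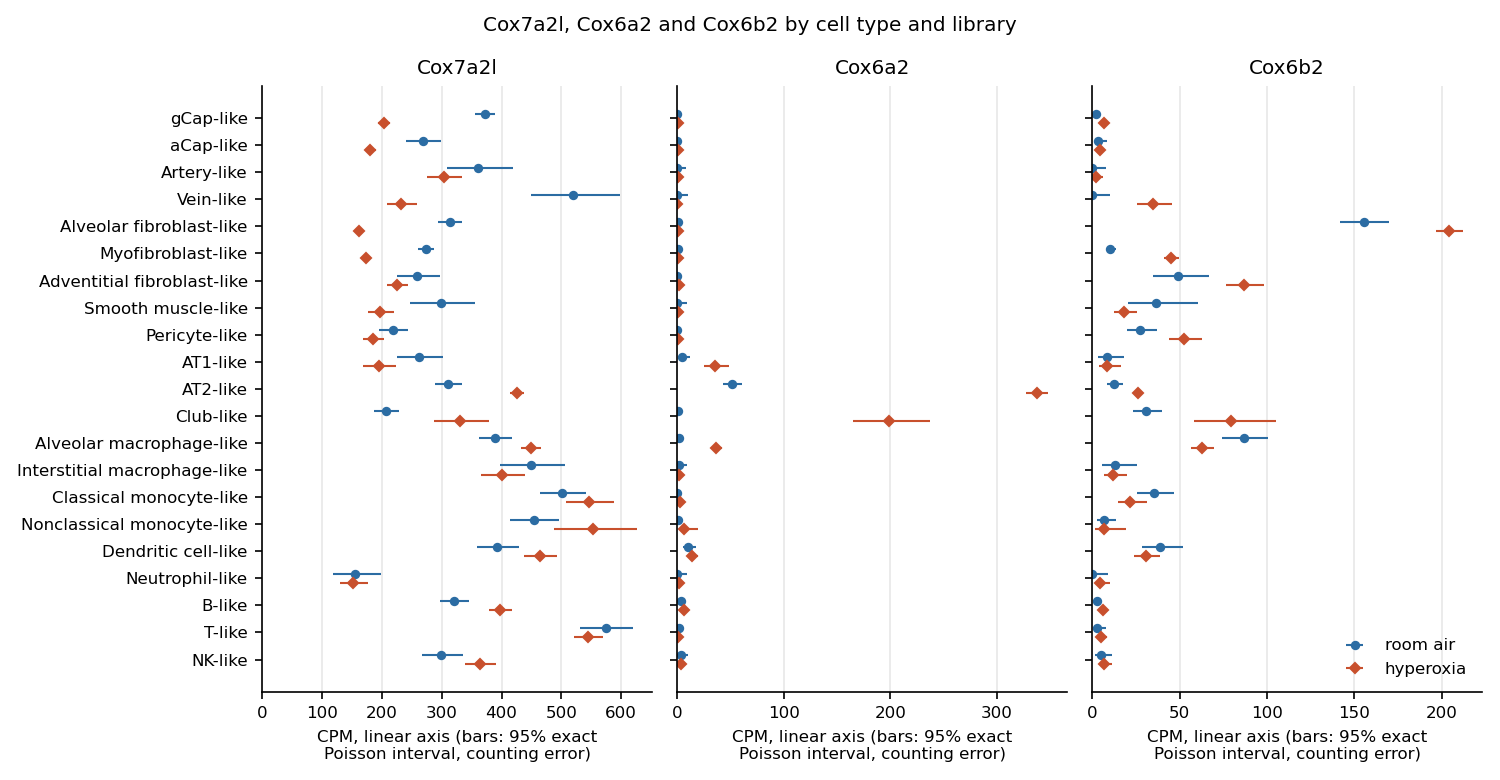
CPM of Cox7a2l, Cox6a2 and Cox6b2 in 21 cell types, circles for the room air library, diamonds for the hyperoxia library, bars for the exact 95% Poisson interval of counting. Cox7a2l is lower in hyperoxia in capillary and Vein-like ECs and fibroblasts but higher in AT2-like cells, and Cox6a2 stands out in AT2-like and Club-like cells of hyperoxia.

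Both isoforms known to be induced at low oxygen, Cox4i2 and Ndufa4l2, are no members but were read beside them. Cox4i2 was a pericyte gene in these lungs, with 2810 CPM in room air and 1428 in hyperoxia in pericyte-like cells (-0.98, -1.04 to -0.91). Under the 11 alternatives computed for it this ratio ran from -1.42 to -0.50. It had at least 1 UMI in 91.8% (86.2 to 95.7) of 147 and 80.1% (74.8 to 84.7) of 266 such cells, and in 82.4% and 67.4% after thinning. B-like cells, the background, had 1.29% and 0.765% (0.857% and 0.474% after thinning). Ndufa4l2 had 1265 and 1029 CPM in pericyte-like cells (-0.30), and its sign changed under 3 of 11 alternatives. In the same pericyte-like cells the constitutive Cox4i1 had 874 and 1086 CPM (0.31, 0.22 to 0.41) and Ndufa4 176 and 196 CPM (0.15, -0.07 to 0.37). Over the cell types Cox4i1 was higher in 18 of 21 and Ndufa4 lower in 14 of 21.

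Other genes of the pathway were read from lists. In ECs, of 8 genes of the tricarboxylic acid cycle at 50 CPM all were above 0 (56.5% of all genes) and 1 was past the fold (10.6% of all genes), Mdh2, which makes oxaloacetate (142 and 202 CPM, 0.51). Of 12 carriers and inhibitors 1 was, the outer membrane channel Vdac2 (196 and 281 CPM, 0.52). Of the 44 assembly factors 6 reached 50 CPM, and Pet100, an assembly factor of complex IV, was lower (63.1 and 39.0 CPM, -0.69). Of 19 regulators of mitochondrial biogenesis 2 reached 50 CPM and none was past the fold. Summed log2 ratios were 0.25 for the cycle, 0.01 for assembly factors and -0.08 for the regulators. The 77 mitochondrial ribosomal protein genes had 0.16, and the cytosolic ones, read for comparison, -0.28 in ECs and 0.50 in epithelial-like cells. Of 12 genes of the response to tissue dissociation, 11 reached 50 CPM and 1 was past the fold, the transcription factor gene Fosb (125 and 227 CPM, 0.86). Their sum was higher in hyperoxia in endothelial-like (0.26) and stromal-like cells (0.54) and lower in epithelial-like cells (-1.31), and its part in the OXPHOS values was not tested.

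The promoters of the nuclear members were searched for motifs, which the rule had not used. RefSeq promoters (GRCm38.p6, 250 bases before to 50 bases after the start) were found for 66 of the 82 nuclear members, and 4 motifs were searched on both strands. The motif of nuclear respiratory factor 1 (NRF1) occurred in 17 of the 66 (25.8%) and in 5.19% of the 27025 genes with a promoter. AAGATGGC of YY1 occurred in 9 (13.6% against 3.19%), CCGGAAGT of ETS factors in 5 (7.58% against 4.31%) and TCAAGGTCA of oestrogen-related receptors in 2 (3.03% against 0.466%). None of the 4 was found in 37 of the 66. No matches of different motifs overlapped in these promoters. A match describes letters in this window and says nothing on binding in these lungs.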

How the data were processed

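Lungs of 2-week-old C57BL/6 mice were digested and 8 animals were mixed per group and library. The authors counted UMIs with Cell Ranger against mm10 and deposited raw counts per gene and barcode. The submitters' processing notes give Cell Ranger 2.1.1, while the methods and the matrix headers name other versions. The library kit is likewise given differently in the labels and the methods. The counts themselves had not been normalized.

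The software was pandas 2.3.3, numpy 2.4.6 and scipy 1.17.1 under Python 3.11.15. The libraries held 4234 and 13223 barcodes with 39593888 and 111934936 UMIs. Barcodes under 500 genes or over 20% mitochondrial UMIs were dropped, and simulated doublets were used to remove 129 and 1239 barcodes (0.8% per 1000 barcodes). After scaling to 10000 UMIs per cell and log transformation, 2000 variable genes without members, mitochondrial and sex-linked genes gave 30 principal components. Shared neighbours among 20 nearest were clustered (scikit-learn 1.9.0, igraph 0.11.9, leidenalg 0.10.2) at resolution 1 with seed 1. Clusters were named from marker genes and left unnamed where markers of another class outnumbered their own among the leading genes. NK-like cells kept their name although T cell genes (Cd3d, Cd3g) were among their leading genes. Unnamed clusters counted in their lineage only.

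UMIs were summed per group of cells and library. Poisson, conditional ratio and Clopper-Pearson intervals are exact. Summed counts of 36451051 and 87453456 UMIs stand behind the kept cells. The scripts were tested on simulated counts. No group had a second library, so no test, no standard error and no p-value is given.

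Named were the 13 mt- genes, the highest and lowest member per nuclear complex in ECs at 50 CPM, members past the fold in the same direction in at least 3 lineages, isoform families, Cox4i2, Ndufa4l2 and listed pathway genes past the fold in ECs. Others were named after their values were seen. The members and lists were chosen with earlier results of these data known. Transcript lengths and coordinates are from GENCODE M21 on GRCm38, the build of mm10. Alternatives changed the limits on cells, doublets, clustering, scaling, averaging and the CPM floor.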

Additional observations from a re-analysis of the deposited data

Results flagged for a closer look

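Cox7a2l had a log2 ratio of -0.77 in endothelial-like cells and 0.61 in epithelial-like cells. It is listed because the same contrast went in opposite directions in these lineages. Within the epithelial-like cells, AT2-like cells were higher and AT1-like cells lower in hyperoxia, and the lineage value also moves with its makeup. The difference between them was not tested, as each group had 1 library.

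Barcodes over the mitochondrial limit, which enter no comparison, made up 3.68% (3.36 to 4.01) of the hyperoxia library, above the 1.89% (1.5 to 2.35) of room air. Their median mt- share was 28.1% in hyperoxia (486 barcodes) and 24.9% in room air (80 barcodes), and the nuclear members held 0.498% and 0.508% of their UMIs, beside 1.62% and 1.65% in barcodes within the limits.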

How the results depend on the processing

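The 12 listed alternatives and 3 chosen after seeing the data gave 1365 values of single genes or groups of cells, of which 1329 kept the sign and 0 past the fold reversed. Of them 456 lay outside the counting interval of the reported value. The endothelial-like nuclear ratio of 0.05 became 0.044 with at least 1000 genes per cell, 0.064 with double the doublets removed, 0.032 with scaling without mitochondrial, ribosomal and haemoglobin genes, 0.15 with TMM factors, 0.094 as a mean over cells and 0.17 with members of at least 600 bases. The mt- ratio of 0.34 became 0.28 with a limit of 10% mitochondrial UMIs, 0.38 with none, 0.35 with at least 1000 genes, 0.32 without doublet removal, 0.37 with double removal, 0.32 with the scaling above, 0.43 with TMM factors, 0.31 as a mean over cells, 0.36 without unnamed clusters and 0.37 with members of at least 600 bases. Cell types with a higher nuclear sum, 4 in the report, were 2 (of 18) with at least 1000 genes and 9 with members of at least 600 bases. Those with a higher mt- sum, 19 in the report, were 16 (of 21) as a mean over cells. Nuclear members past the fold upward, 19 over the lineages, were 10 as a mean over cells and 28 with TMM factors. The cause of these changes was not tested. TMM factors shifted all genes of alveolar macrophage-like cells by 0.28, of interstitial macrophage-like cells by 0.10, of myeloid-like cells by 0.12 and of Club-like cells by -0.66. The spread between libraries of a group was not measured. No paired analysis was possible because each group had 1 library, and none could be left out.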
